A study of Homo sapiens with 2 samples.

Results

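ODC1, SRM, AZIN2 and EIF5A are 4 genes around the polyamines, small positively charged molecules that growing cells need in quantity. They were chosen by name, as the rows whose platform gene symbol is ODC1, SRM, AZIN2 or EIF5A. Each has 1 probe set, so they account for 4 of the 46255 rows and 4 of the 14812 named genes in the table. RNA came from BE(2)C, an established human neuroblastoma cell line with amplified MYCN, in 1 culture transfected with siRNA against MYCN and 1 culture transfected with non-targeting control siRNA. Both cultures were grown and transfected with Lipofectamine 2000 in the same way, and RNA was taken 36 hours later and hybridised to Affymetrix Human Gene 2.0 ST arrays. Only 1 MYCN siRNA was used, and it came from another supplier than the control siRNA. The title of the control array also carries the word reanalysis, which is not explained. The level of MYCN was not analysed here, so the knockdown itself is unchecked and the arrays are named by their labels.

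Ornithine decarboxylase, encoded by ODC1, makes putrescine from ornithine and is the first committed step of polyamine synthesis. Spermidine synthase, encoded by SRM, adds an aminopropyl group to putrescine to give spermidine. Antizymes bind ornithine decarboxylase and send it to the proteasome, and antizyme inhibitors such as the product of AZIN2 resemble the enzyme, lack its activity and hold antizyme away from it. Spermidine is also the substrate for hypusine, a modified lysine found in the translation factor eIF5A, encoded by EIF5A, which helps ribosomes through stretches of proline and at stop codons. ODC1 is a long-known target of MYC proteins, which bind DNA with their partner MAX at the sequence CACGTG, the E-box, and polyamine synthesis has been pursued as a drug target in neuroblastoma.

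ODC1, SRM and EIF5A were all lower in the MYCN siRNA array, and the EIF5A windows hold no CACGTG. Only the sequences before the start sites of ODC1 and SRM are shown, with the matches to CACGTG or CACGCG on either strand in capitals. They come from RefSeq (GRCh38.p14), run 5′ to 3′ in the direction of the gene and end at the base before the annotated start. RefSeq listed 1 start for SRM, 2 for ODC1 and 6 for EIF5A. The stretches shown are chr1:11060019-11060268 (minus strand) for SRM, chr2:10448328-10448577 (minus strand) for the upstream start of ODC1, and the last 60 bases, chr2:10448013-10448072 (minus strand), before the ODC1 start that lies 315 bases further downstream.
SRM: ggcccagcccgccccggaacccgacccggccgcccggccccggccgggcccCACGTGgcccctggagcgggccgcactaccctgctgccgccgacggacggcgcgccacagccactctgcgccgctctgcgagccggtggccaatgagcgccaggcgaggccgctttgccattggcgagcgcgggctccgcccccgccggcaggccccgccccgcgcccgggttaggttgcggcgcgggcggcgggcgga
ODC1 upstream start: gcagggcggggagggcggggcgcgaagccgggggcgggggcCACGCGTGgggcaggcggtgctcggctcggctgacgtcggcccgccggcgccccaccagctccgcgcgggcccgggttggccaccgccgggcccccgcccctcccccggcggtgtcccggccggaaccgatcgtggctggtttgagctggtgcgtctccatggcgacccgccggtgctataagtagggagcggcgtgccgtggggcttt
ODC1 downstream start: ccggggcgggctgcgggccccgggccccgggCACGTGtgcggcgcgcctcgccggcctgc
The SRM sequence holds 1 CACGTG, beginning 199 bases before the start. The ODC1 sequence before the downstream start holds 1 CACGTG, beginning 29 bases before it, and a second one begins at base 6 after that start. Before the upstream start ODC1 has no CACGTG, but it has CACGCG on both strands in overlapping matches that begin 209 and 207 bases before the start and make up the capitals CACGCGTG. None of the 6 EIF5A windows of 300 bases (250 before and 50 after the start) holds CACGTG, and 2 of them, which overlap and show the same sites, hold CACGCG on either strand. Of all 35116 such windows in the RefSeq table, 7.26% hold CACGTG and 11.4% hold CACGCG on either strand. Counted per gene, 12.3% of measured genes with a window hold CACGTG in at least 1 window, and 22.1% hold CACGCG. AZIN2 had no window in this source and was not searched. A match describes the letters only and does not show that a factor binds there.

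The comparison asks how RNA levels differ once MYCN is targeted. The values are the authors' log2 RMA values, levels on a log2 scale that are not set per transcript length, so they are not compared between genes as amounts of RNA. Differences were taken as MYCN siRNA minus control siRNA, so a negative one is lower in the MYCN siRNA array. No group has a replicate, so no p-value is given, and the spread between cultures of one treatment is not known. The one available yardstick is the spread between probe sets of the same gene, an SD of 0.31 in the log2 difference over 374 genes with more than 1 probe set. It leaves out the spread between cultures and arrays. A gene was called measured when it reached the median of all rows (4.55 in the MYCN siRNA array and 4.6 in the control array) in at least 1 array, which held for 10592 genes and for all 4 genes described here. As a check of the cell type, 8 of 10 adrenergic neuroblastoma markers were in the table and all were measured, with levels from 6.53 (TH) to 10.77 (DBH) in the MYCN siRNA array and from 6.47 (TH) to 10.57 (HAND2) in the control array. Of the markers of other cells, 4 of 14 were in the table, and the blood cell marker CD14, the epithelial marker EPCAM and the fibroblast marker DCN lay under both array medians. LUM, the other fibroblast marker, was at 5.37 in the MYCN siRNA array and 6.54 in the control array, and its part in the results below was not tested. The amount of RNA per cell and the make-up of the culture cannot be told apart in bulk RNA.

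ODC1, SRM and EIF5A were lower in the MYCN siRNA array, each by between 1.72-fold and 1.81-fold, and AZIN2 was higher by 1.69-fold. ODC1 was at 10.76 in the MYCN siRNA array and at 11.59 in the control array, a log2 difference of -0.83 (1.77-fold lower). SRM was at 10.79 in the MYCN siRNA array and at 11.65 in the control array, a log2 difference of -0.86 (1.81-fold lower). RNA levels of ODC1 and SRM thus differed between the arrays by nearly the same amount, a closeness that is common in this table. All 4 of these levels stood more than 6 log2 units above the array medians. EIF5A was at 6.42 in the MYCN siRNA array and at 7.2 in the control array, a log2 difference of -0.78 (1.72-fold lower). AZIN2 was the one gene of the 4 that was higher, at 5.22 in the MYCN siRNA array and 4.46 in the control array, a log2 difference of 0.76. Its control value lay 0.15 under the median of that array, so its level there is not shown to be above background and the fold is uncertain.

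**Figure D1:**
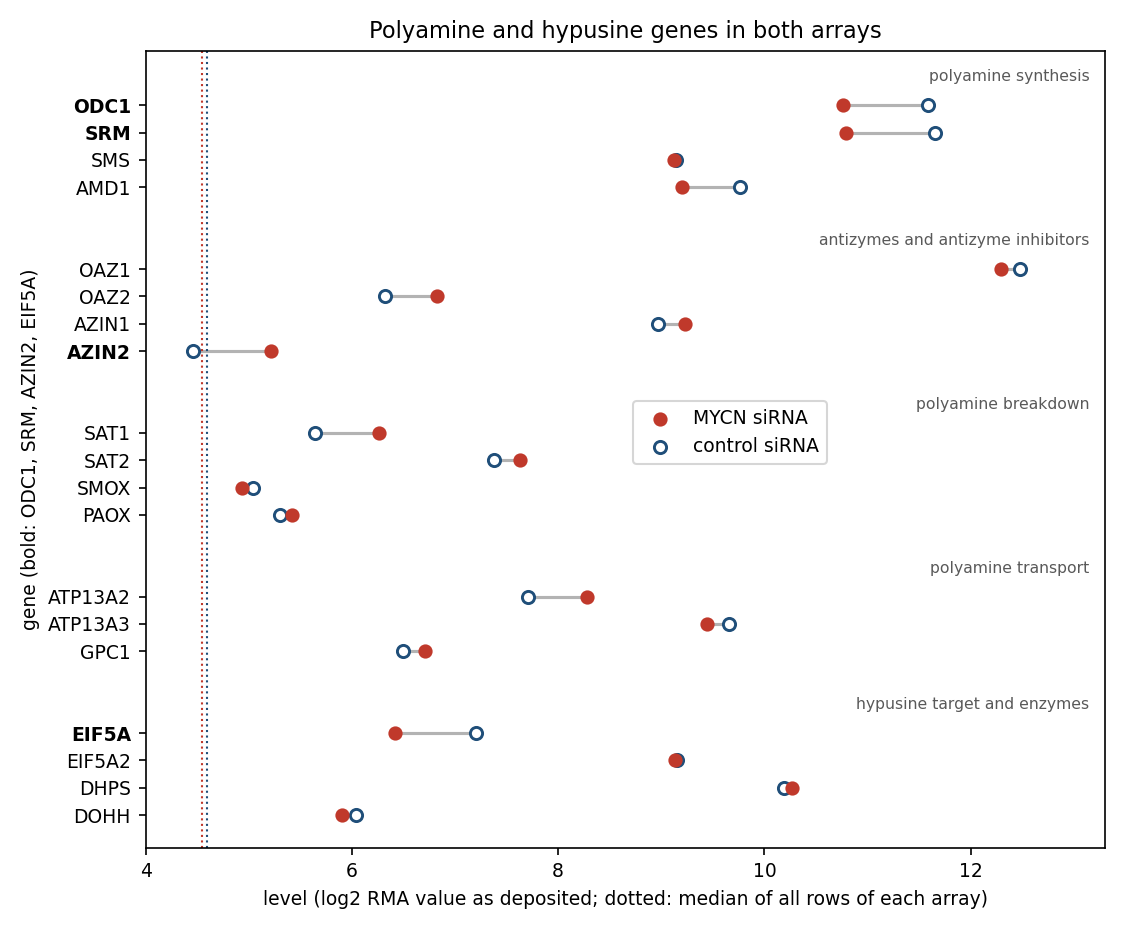
Level (log2 RMA value) of the 19 measured genes of the polyamine and hypusine lists, with 1 filled point for the MYCN siRNA array and 1 open point for the control siRNA array. ODC1, SRM and EIF5A have the filled point 0.78 to 0.86 to the left of the open one, and AZIN2 has it 0.76 to the right, with the open point just left of the dotted array medians.

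The differences of ODC1, SRM and EIF5A were 2.5 to 2.8 times the probe set SD of 0.31, and none of the 4 genes reached 2-fold. Of all measured genes, 1.16% were at least 2-fold lower and 2.21% at least 2-fold higher. ODC1, SRM and EIF5A were at least 1.5-fold lower, a size reached by 5.79% of measured genes in that direction (613 genes). In the higher direction it was reached by 8.81% (933 genes). AZIN2 was past 1.5-fold higher as deposited, but not with an offset of 16 on the linear scale (0.49). It is not set against that share, because it counted as measured only through the array where it was higher. All 4 genes were chosen with earlier results known. SRM had the 204th lowest difference of the 10592 measured genes, ODC1 the 229th and EIF5A the 285th, so that 1.93%, 2.16% and 2.69% of measured genes were at least as low.

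The 3 lower genes were also set beside genes of similar mean signal. Of the 178 other measured genes whose mean level lay within 0.5 of that of ODC1, 3 (1.69%) were at least as low as ODC1. Of the 173 around SRM, 2 (1.16%) were at least as low as SRM. Around EIF5A, 61 of 2007 genes (3.04%) were at least as low. No such place is given for AZIN2, which counted as measured only through the array where it was higher. The spread between probe sets of one gene was smaller at high levels, with an SD of 0.11 over 11 genes at a mean level of 9 or more and 0.33 over 159 genes under 6.

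**Figure D2:**
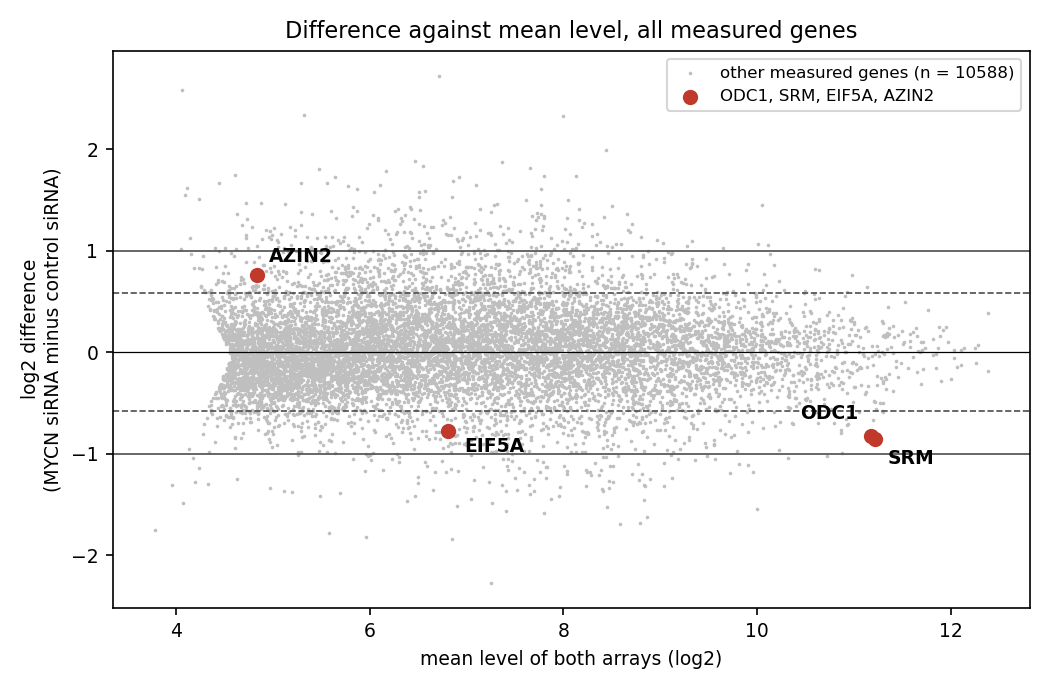
Log2 difference (MYCN siRNA minus control siRNA) against the mean level of both arrays, 1 point per measured gene, with dashed lines at 1.5-fold and solid lines at 2-fold. ODC1 and SRM lie at the lower edge of a narrow cloud at a mean level of 11.17 and 11.22, and AZIN2 lies at 4.84, near the left edge.

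The other steps of polyamine synthesis were both in the table. AMD1 encodes adenosylmethionine decarboxylase, which makes the aminopropyl donor used by spermidine and spermine synthases. It was at 9.2 in the MYCN siRNA array and 9.76 in the control array, a log2 difference of -0.56 (1.48-fold lower). SMS, spermine synthase, was at 9.12 in the MYCN siRNA array and 9.14 in the control array. Its difference of -0.02 had no steady sign, since it ran from -0.02 to 0.03 over the ways of processing tried. As deposited, all 4 synthesis genes were thus at or below their control value, and the list median was -0.69, against 0.01 for all measured genes. That median leans on ODC1 and SRM, the only 2 at least 1.5-fold lower, which were chosen with earlier results known. The other 2 were AMD1 at -0.56 and SMS at -0.02.

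The regulators of ornithine decarboxylase differed in direction among themselves. OAZ1, the main antizyme, was at 12.29 in the MYCN siRNA array and 12.48 in the control array, a log2 difference of -0.19. OAZ2, a second antizyme, was at 6.83 in the MYCN siRNA array and 6.32 in the control array (log2 difference 0.51). AZIN1, the more widely expressed antizyme inhibitor, was at 9.23 in the MYCN siRNA array and 8.97 in the control array (log2 difference 0.26). The differences of OAZ1 and AZIN1 were smaller than the probe set SD of 0.31 over all levels and larger than the SD of 0.11 over the 11 genes at a mean level of 9 or more. OAZ2 and AZIN1, whose products act on ornithine decarboxylase in opposite ways, were thus both higher. OAZ3, the testis antizyme, was under both array medians and was not measured. Over the 4 measured genes the median difference was 0.39. AZIN2 is among them, although it counted as measured only through the array where it was higher. With the filter at the 70th percentile of all rows, which drops AZIN2, the median was 0.26.

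Among the enzymes that break polyamines down, SAT1 had the largest difference. SAT1 encodes the acetyltransferase that marks spermidine and spermine for export or oxidation, and it was at 6.26 in the MYCN siRNA array and 5.64 in the control array, a log2 difference of 0.62 (1.54-fold higher). SAT2, a related acetyltransferase, differed by 0.25, PAOX, the oxidase of acetylated polyamines, by 0.12, and SMOX, spermine oxidase, by -0.1, all within the probe set SD. With 3 of 4 genes higher, this list had a median of 0.18. Among all measured genes 48.0% were lower, so such a count among 4 genes is common. SAT1 and AZIN2 were the 2 genes of the polyamine lists that were at least 1.5-fold higher as deposited, and both dropped under 1.5-fold (each to 0.49) after an offset of 16 on the linear scale, which damps dim probe sets.

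Of the 8 polyamine transport genes listed, 3 were in the table. ATP13A2, a lysosomal pump that exports polyamines to the cytosol, was at 8.28 in the MYCN siRNA array and 7.71 in the control array, a log2 difference of 0.56 (1.48-fold higher). Its relative ATP13A3 differed by -0.22. GPC1, glypican-1, which takes part in polyamine uptake, differed by 0.22 as the mean of 2 probe sets that disagreed, at 0.54 and -0.1. With 2 genes higher and 1 lower, the list median was 0.22.

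EIF5A was the only one of the 4 genes in the hypusine list to pass 1.5-fold. DHPS, deoxyhypusine synthase, which moves the aminobutyl group of spermidine onto eIF5A, was at 10.27 in the MYCN siRNA array and 10.19 in the control array (log2 difference 0.08). DOHH, the hydroxylase that completes hypusine, was at 5.9 in the MYCN siRNA array and 6.04 in the control array (log2 difference -0.14). EIF5A2, the second gene for an eIF5A protein, was at 9.13 in the MYCN siRNA array and 9.15 in the control array, and its difference of -0.02 turned to 0.03 under another scaling. RNA of EIF5A was thus lower, while RNA of both enzymes and of EIF5A2 differed by less than the probe set SD. The median of the 4 genes was -0.08. EIF5AL1, a near-identical copy of EIF5A on chromosome 10, had a log2 difference of -0.6, from 5.63 in the MYCN siRNA array and 6.22 in the control array. Probes of the 2 genes may read each other's RNA, so the value of EIF5A is uncertain to that extent.

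Most other factors of translation elongation and termination differed by less than EIF5A. In that list 7 of 11 genes were measured, 5 lower and 2 higher, none by 1.5-fold, with a median of -0.1. Among all measured genes 48.0% were lower. Its extremes were EEF1D, a subunit of the nucleotide exchange factor of elongation, at -0.37 and EEF1A2, the elongation factor of neurons and muscle, at 0.4.

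Supply of the 2 starting materials was looked at next. Of 7 genes for the supply of ornithine and arginine, 4 were measured, 3 of them lower, with a median of -0.43. Among all measured genes 48.0% were lower, so such a count among 4 genes is common. SLC25A15, the mitochondrial ornithine carrier, was lowest, at 7.53 in the MYCN siRNA array and 8.25 in the control array (log2 difference -0.72, 1.65-fold lower). OAT, ornithine aminotransferase, was highest at 0.06. SLC25A2, a second ornithine carrier named after its value was seen, passed 1.5-fold narrowly at -0.59 and was dim, at 4.87 in the MYCN siRNA array and 5.46 in the control array. It was under 1.5-fold after median centring (-0.54), quantile normalization (-0.54), loess (-0.52) and the offset of 16 (-0.41). The methionine and methylthioadenosine cycle gives the aminopropyl donor and recycles its remains. Of its 10 listed genes, 7 were measured and 5 of them were lower, with a median of -0.43. Beside the share of 48.0%, a count among so few genes is not read as a result about the list. MTAP, which cleaves the methylthioadenosine left over by spermidine and spermine synthesis, was lowest, at 6.65 in the MYCN siRNA array and 7.28 in the control array (log2 difference -0.64, 1.55-fold lower, or -0.56 and under 1.5-fold with the offset of 16). ADI1, a later enzyme of the same salvage route, was highest at 0.29.

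**Figure D3:**
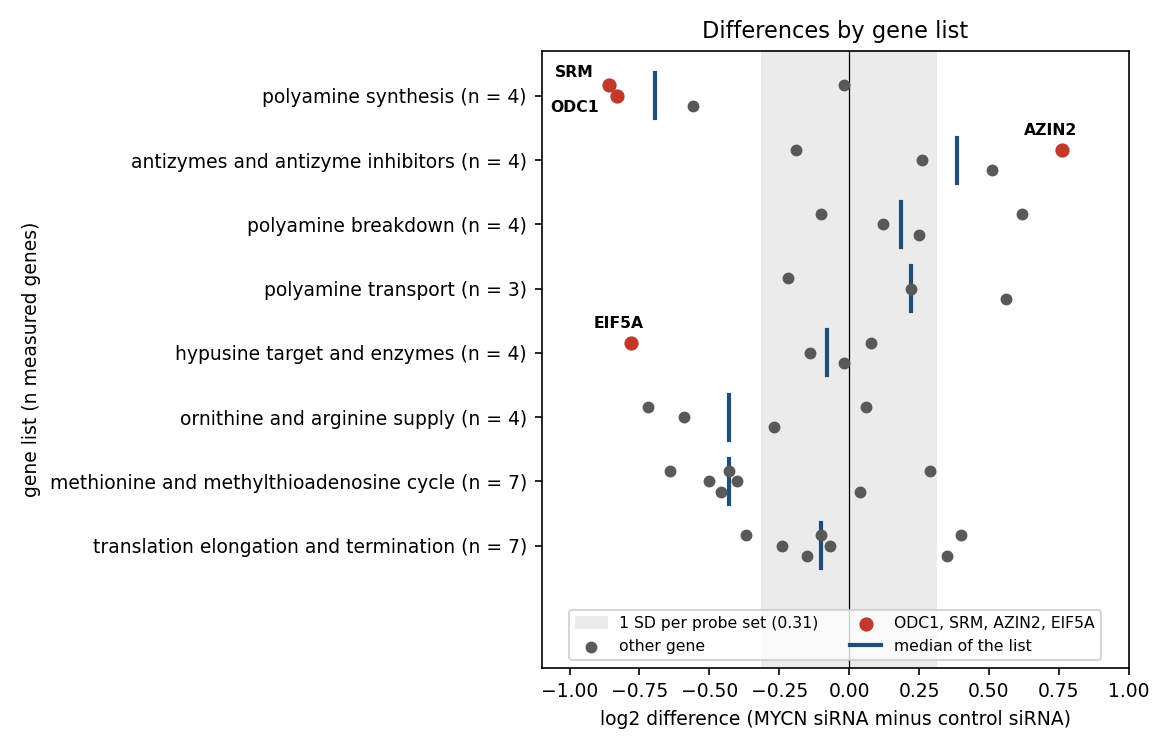
Log2 difference (MYCN siRNA minus control siRNA) of each measured gene in the 8 pathway lists, with list medians as vertical bars and the probe set SD of 0.31 as a grey band. As deposited, the medians of synthesis (-0.69), ornithine and arginine supply (-0.43) and the methionine cycle (-0.43) lie below 0. Those of antizymes and inhibitors (0.39), breakdown (0.18) and transport (0.22) lie above it. The supply median was -0.27 with the filter at the 70th percentile of all rows, which drops the dim SLC25A2. ODC1, SRM, AZIN2 and EIF5A, chosen with earlier results known, are included in the medians of their lists.

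Over the 8 pathway lists together, 37 of 53 genes were measured, 23 lower and 14 higher, with a median of -0.1. Among all measured genes 48.0% were lower and the median was 0.01. Without ODC1, SRM, AZIN2 and EIF5A the lists had 20 genes lower and 13 higher, again with a median of -0.1. Within the 5 polyamine and hypusine lists alone, the 15 measured genes other than these 4 split into 7 lower and 8 higher, with a median of 0.08 and, as deposited, a single gene, SAT1, past 1.5-fold. ATP13A2 also passed it after median centring (0.61). None of these 15 genes was 1.5-fold lower. Of all measured genes, 5.79% were at least 1.5-fold lower and 8.81% at least 1.5-fold higher as deposited. The counts among these 15 genes are near those shares.

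The direction of all 4 genes was the same after median centring, quantile normalization and loess. The other alternatives could not turn it, since each gene has 1 probe set and an offset keeps the order of a gene's values. A filter leaves the values as they are. ODC1 ran from -0.83 to -0.77, SRM from -0.86 to -0.8 and EIF5A from -0.85 to -0.68, all past 1.5-fold (0.58 on the log2 scale). AZIN2 ran from 0.49 to 0.83, and its lowest value, with an offset of 16 on the linear scale, is under 1.5-fold. It was no longer counted as measured with a filter at the 70th percentile of all rows.

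**Figure D4:**
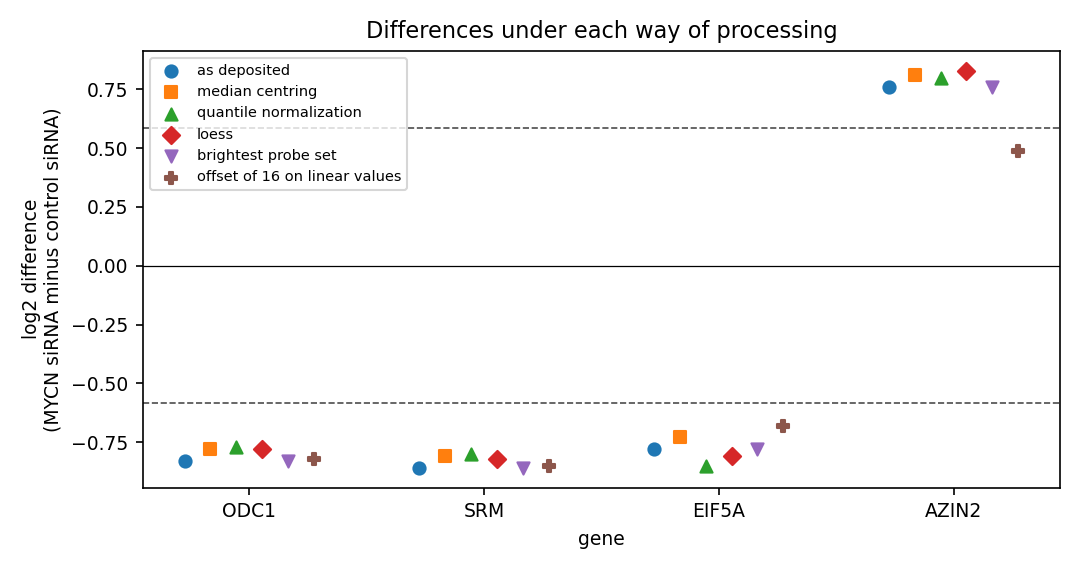
Log2 difference (MYCN siRNA minus control siRNA) of EIF5A, ODC1, SRM and AZIN2 as deposited and under 5 other ways of processing, with dashed lines at 1.5-fold. ODC1, SRM and EIF5A stay below the lower line in all of them, and AZIN2 drops to 0.49, inside the upper line, with the offset of 16.

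The genes next to each of the 4 on the chromosome, in RefSeq order, were read to see whether they differed alongside. Among the 4 nearest measured genes on each side of ODC1 on chromosome 2, 4 were lower and 4 higher, with a range of -0.47 to 1.57 and a median of -0.06. None was 1.5-fold lower, and SLC66A3 (1.57) and KLF11 (0.6) were at least 1.5-fold higher. NOL10, its nearest measured neighbour on one side, was at -0.39, and HPCAL1, on the other, was at 0.37. The 8 neighbours of SRM on chromosome 1 ranged from -0.25 to 0.36, and EXOSC10 and MASP2, on either side of it, were at -0.11 and -0.12. The 8 neighbours of EIF5A on chromosome 17 ranged from -0.2 to 0.39, with GPS2 and CLDN7 beside it at 0.39 and 0.35. No neighbour of these 3 genes was as low as the gene itself. Of all measured genes, 1.93% to 2.69% were at least as low as these 3. At least 1.5-fold, 5.79% were lower and 8.81% higher. Such low genes are few in the whole table, so their absence among 8 neighbours is not a result about these stretches. AZIN2, on another stretch of chromosome 1, lay between RNF19B at 0.6 and ZNF362 at 0.48. Of its 8 neighbours 5 were higher, FNDC5 by the most (1.45). Among all measured genes 48.0% were lower, so such a count is common and is not a result about this stretch. These neighbours were chosen by position alone, after the values of the 4 genes were known.

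**Figure D5:**
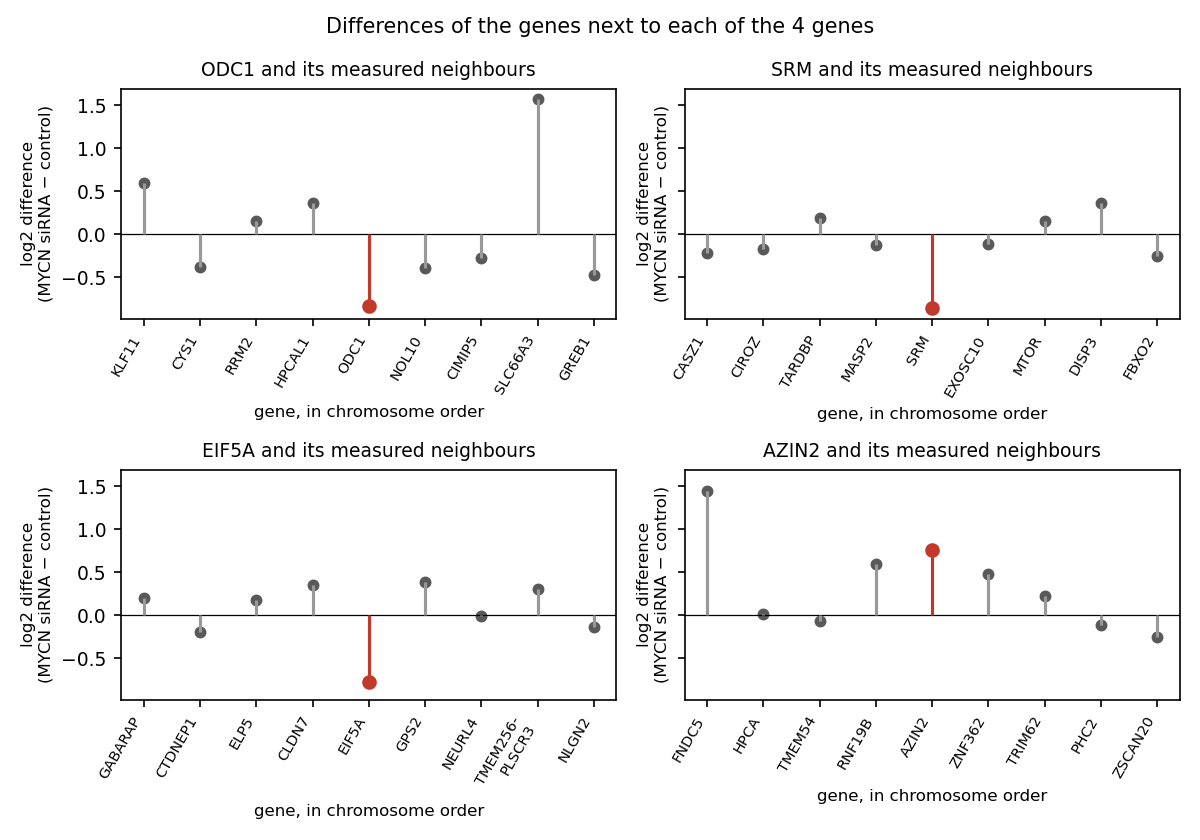
Log2 difference (MYCN siRNA minus control siRNA) of ODC1, SRM, EIF5A and AZIN2 (red) and of the 4 nearest measured genes on each side (grey), in chromosome order and not to scale in distance. ODC1, SRM and EIF5A each lie below all 8 of their neighbours, where 1.93% to 2.69% of all measured genes are at least as low. AZIN2 has higher genes on both sides next to it, which is common where 48.0% of all measured genes are lower.

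With 2 arrays, likeness of pattern comes down to how close 2 differences are. The protein-coding genes nearest to ODC1 by this measure were MFHAS1 (-0.83) and NEK6 (-0.82), and those nearest to SRM were CCDC136 and PUS1 (both -0.86). PRPF31 and SYCP2L (both -0.78) were nearest to EIF5A, and ZNF281 and ZNF329 (both 0.76) were nearest to AZIN2. Such closeness is common in this table. Within 0.05 of the difference there were 82 other protein-coding genes for ODC1, 67 for SRM, 94 for EIF5A and 143 for AZIN2.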

How the data were processed

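The authors deposited RMA values on a log2 scale, 1 for each probe set on each array; RMA is named in the submitters' processing notes. The sources used here do not give its software, its settings, or whether further arrays were normalized together with these. The log2 scale was read from the values (0.85 to 13.51, array medians not at 0). The platform annotation gave 1 gene symbol to each of 15835 rows of 46255 and left the other 30420 without a name here. Every gene identifier was found in RefSeq GRCh38.p14, used for symbols, gene order and promoter sequences. Probe sets of a gene were averaged, with Python 3.11.15 and pandas 2.3.3.

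Thresholds of 2-fold and 1.5-fold were counted over 10592 measured genes. With 1 array per group there was no test, and precision is limited by the number of arrays. The 4 genes, the gene lists (from textbook knowledge) and the thresholds were chosen with earlier results of these data known. Named genes were the 4, every measured gene of the 5 polyamine and hypusine lists, the extremes of each other pathway list, and the 2 genes nearest to each of the 4 in difference. SLC25A2, EIF5AL1, the unmeasured OAZ3, the cell type markers and the neighbouring genes are named outside this rule, and the motif search was added later. Scripts were tested on simulated data. Alternatives were median centring, quantile normalization, loess (span 0.3), the brightest probe set, an offset of 16, no filter, and a filter at the 70th percentile.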

Additional observations from a re-analysis of the deposited data

How the results depend on the processing

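Under the 7 alternatives, 118 values were recomputed: the 4 differences, the counts of genes past 2-fold and 1.5-fold, and the medians of the lists and of all measured genes. None of the differences or medians changed sign, and 116 of the 118 stayed within the probe set SD of 0.31 (values) or within 1.5 times (counts). Counts have no sign, and some values could not move, such as those of the 4 genes with the brightest probe set. SMS and EIF5A2, whose differences did turn sign, are not among the 118. The count of genes at least 2-fold higher was 124 with an offset of 16 on the linear scale, against 234 as deposited, since the offset damps dim genes by construction. The median of the polyamine transport list was 0.54 with the brightest probe set, against 0.22, because 1 of its 3 genes, GPC1, has 2 probe sets that disagree. The median of the 8 pathway lists together ran from -0.14 to -0.05, that of polyamine synthesis from -0.69 to -0.64, and that of breakdown from 0.16 to 0.44. The median of antizymes and antizyme inhibitors ran from 0.26 to 0.44. That of ornithine and arginine supply ran from -0.43 to -0.27. Median centring moved the median of all measured genes to 0.06. No paired analysis was possible because each group has 1 array. Signal over background limits the values close to the array medians, such as those of AZIN2, SMOX and SLC25A2.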

Other observations

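CACGTG was looked up in the RefSeq promoter windows of all measured genes after the matches in ODC1 and SRM had been seen. Of the 8152 measured genes with a window, 12.3% had CACGTG in at least 1 of them. The share was 22.5% (106 of 472) among genes at least 1.5-fold lower in the MYCN siRNA array and 8.13% (58 of 713) among genes at least 1.5-fold higher. For CACGCG on either strand the shares were 30.7% of the lower genes, 18.2% of the higher genes and 22.1% of all measured genes with a window. These shares are descriptions of 2 arrays and were not tested, and base composition and the number of windows per gene were not matched.

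Of the 15 measured polyamine and hypusine genes with a window, 4 had CACGTG, beside 12.3% of all measured genes with a window. These were ODC1 (-0.83), SRM (-0.86), DOHH (-0.14) and EIF5A2 (-0.02). The other 11 were 5 lower and 6 higher, and EIF5A (-0.78) and AMD1 (-0.56) were the lowest of them. ODC1 and SRM were chosen with earlier results known, and their matches were seen before this search. The differences of DOHH and EIF5A2 were smaller than the probe set SD of 0.31, and that of EIF5A2 had no steady sign (-0.02 to 0.03). No conclusion about the motif is drawn from these genes.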
